A study of Mus musculus with 6 samples.

Results

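The 32 genes described here encode lysosomal hydrolases, lysosomal membrane proteins and regulators of the lysosome, and they were chosen by name from what their products do, with cathepsins and proton pump subunits left out. All 32 were found among the 15663 genes listed in the count tables of mouse RPE-choroid. The lysosome is the acidic compartment in which soluble hydrolases break down sugars, sulfated glycans, lipids and proteins delivered by endocytosis, phagocytosis and autophagy. Its limiting membrane carries heavily glycosylated proteins and transporters, and the transcription factors TFEB and TFE3 of the MiT/TFE family switch on many of its genes. The retinal pigment epithelium (RPE) engulfs the tips of photoreceptor outer segments every day and digests them in lysosomes. Macrophages are also known for a large lysosomal system.

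RPE-choroid, the pigment epithelium with the vascular choroid beneath it, was taken from 3 control mice, labelled untreated, and 3 mice with subretinal fibrosis (SRF), 1 library per mouse. The strain was C57BL/6, and the methods of the study give male C57BL/6J mice 8 to 10 weeks old for all groups. SRF eyes received 4 laser burns and a second burn on each lesion after 10 days, and RNA was extracted 20 days after the second burn. The laser damages only the burned spots while the whole tissue was sequenced, so lesion and unburned tissue were measured together, and fewer cells of a type cannot be told apart from less RNA per cell.

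Counts per library summed to between 13667310 and 24356023, and 3 counts corresponded to 0.1232 to 0.2195 CPM (counts rescaled so that libraries of unequal depth can be compared) before normalization. A list of 9 RPE markers, among them Rpe65 and Best1, was detected in full in every library (lowest count 42) and summed to 44060 to 52175 CPM in controls and 29344 to 38860 CPM in SRF. A list of 16 macrophage markers summed to 1451 to 1879 CPM in controls and 3324 to 4749 CPM in SRF, without overlap. A list of 15 photoreceptor markers set 2 libraries apart, control 1 at 13764 CPM and SRF 3 at 13268 CPM, against 780 to 1880 CPM in the other 4. The main counts and medians over the members, and the values of many single members, are therefore given also without these 2 libraries.

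**Figure D1:**
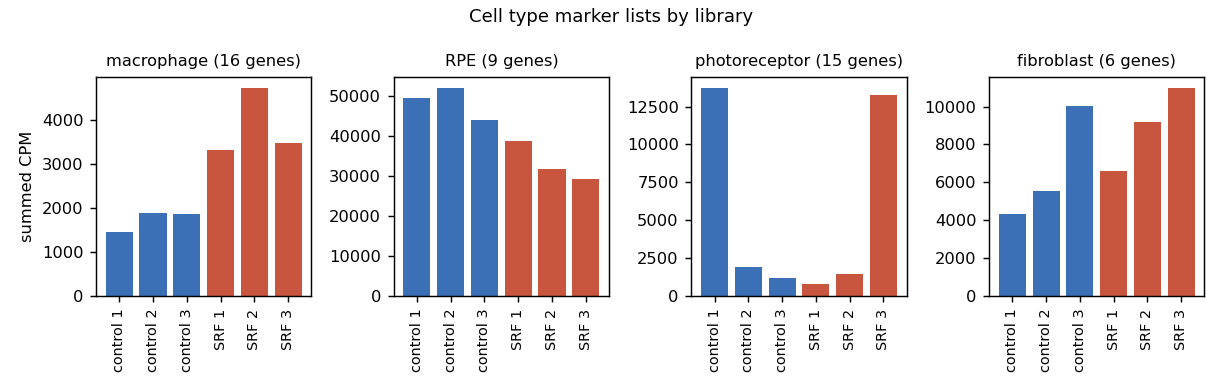
Summed CPM (linear axes starting at 0) of macrophage, RPE, photoreceptor and fibroblast marker lists in each of the 6 libraries, 1 bar per library, blue for control and red for SRF. The macrophage bars of the SRF libraries stand between 3324 and 4749 CPM, all above the controls, the RPE bars are lower in all 3 SRF libraries, and control 1 and SRF 3 carry the high photoreceptor bars.

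Levels of the lysosomal genes differed little between fibrotic and control tissue. A gene was called where its adjusted p-value was under 0.05 and its log2 fold change was 0.5 or more in size, with the quasi-likelihood test of edgeR and Benjamini-Hochberg adjustment over 13454 genes. By this rule 0 of the 32 members were called (smallest adjusted p of a member 0.539, for Lgmn), as were 0% of all genes. A nominal p-value, that is one before adjustment, below 0.05 was found by edgeR for 5 members, and over all genes for 560 higher and 383 lower in SRF. DESeq2 called 1.14% of all genes, 153 in number, and again 0 of the 32 (smallest adjusted p 0.174, for Lgmn). The log2 fold changes of SRF against control ran from -0.24 for Smpd1 to 0.53 for Tfeb, with a median of 0.07 beside 0.00 over all genes tested. In 19 members the difference was positive and in 13 it was negative. The median was 0.01 without control 1 and SRF 3, with 17 positive and 15 negative.

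Standard errors on the log2 scale lay between 0.10 and 0.22 for the members, beside a median of 0.19 over all genes. The log2 fold change was within 0.25 of zero in 27 members (84.4%, beside 72.4% of all genes). The 95% interval stayed within 0.5 of zero in 16 of the 32 members (beside 32.3% of all genes) and within 1 of zero in 31. Tfeb was the exception, with an upper bound of 1.03. Of the 32 members 28 were above the median gene in level, and these shares were not compared with those of genes at like levels.

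A few members stood at the upper edge of this narrow range. The 5 members with a nominal p-value below 0.05 were Lgmn, Tfe3, Man2b1, Grn and Tfeb, all higher in SRF (15.6%, beside 4.16% of all genes), and 0 members were lower at that level (2.85% of all genes). The count depended on single libraries. It was 2 without control 1, 2 without control 2, 2 without SRF 1 and 0 without SRF 2, and 4 without control 3 or without SRF 3. Without control 1 and SRF 3 together it was 2 higher, Lgmn and Tfeb (9.21% of all genes), and 1 lower, Smpd1 (8.41%). The 3 SRF libraries lay above the 3 controls in 6 members, Man2b1, Lgmn, Grn, Tfe3, Gla and Naglu (18.8%, beside 6.71% of all genes), and below them in Tpp1 alone (3.1%, beside 6.43%). In the 4 libraries left without control 1 and SRF 3, the groups lay apart in 11 members upward and 6 downward, where 25.5% and 24.4% of all genes did so.

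**Figure D2:**
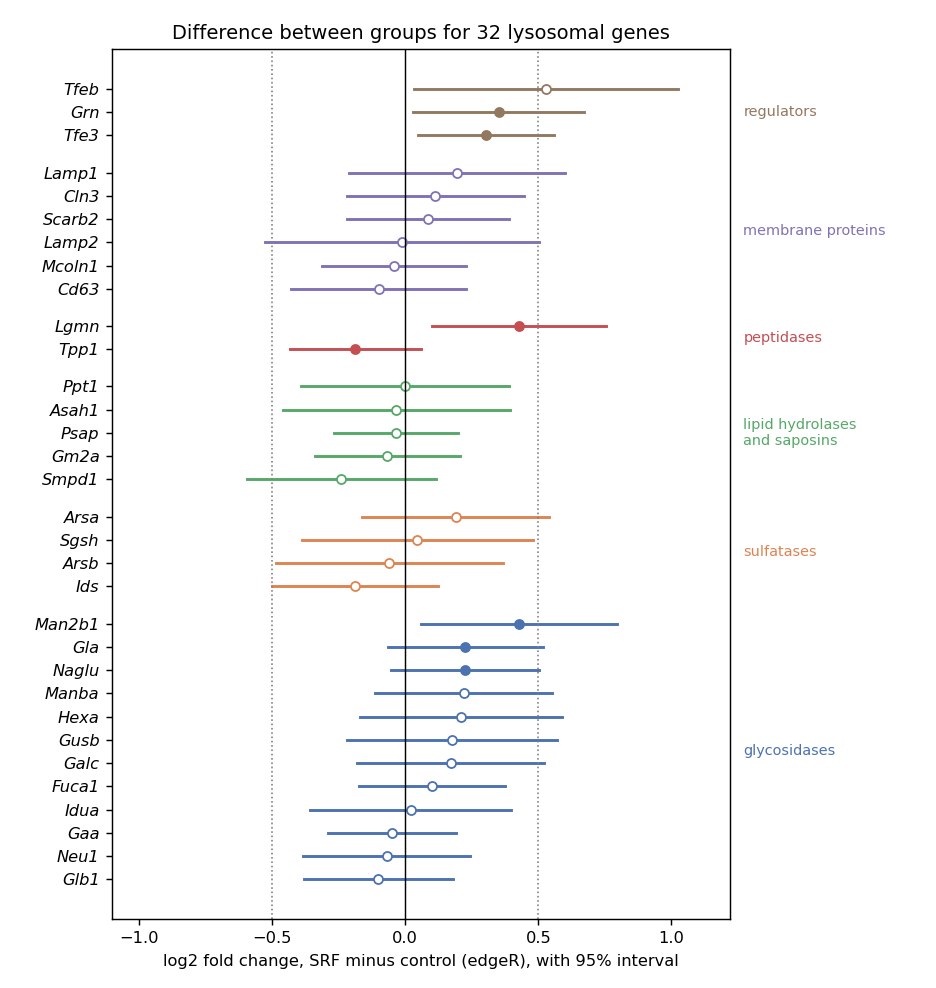
Log2 fold change of SRF against control from edgeR (points) with its 95% interval (bars) for the 32 members, grouped by role, with 3 libraries per group. Filled points mark the 7 members whose groups do not overlap, and dotted lines mark 0.5 either way. Most points lie within 0.25 of zero, and the 3 regulators, Lgmn and Man2b1 have intervals that do not reach zero.

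The members together took a similar share of the counts in both groups. Their summed level was 6651 ± 417 CPM in controls and 6741 ± 170 CPM in SRF (SD, n = 3), and over the 6 libraries it ranged from 6189 CPM in control 1 to 6998 CPM in control 3. This was 0.610% to 0.706% of the counts on all genes. Cd63 alone held 1685 ± 133 CPM in controls and 1572 ± 219 CPM in SRF. The sum without Cd63 was 4967 ± 481 CPM in controls and 5170 ± 350 CPM in SRF, or 0.442% to 0.551% of the counts. Control 1 was the lowest of the 6 libraries in 14 of the 32 members. The spread within groups was small, with a median coefficient of variation over members of 10.7% in controls and 10.1% in SRF.

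Levels were compared between genes in FPKM, the read number scaled by transcript length and library size, and spanned a wide range. The median gene of the tables had a mean of 7.22 FPKM, and 28 of the 32 members were above it. In 8 members the mean exceeded 100 FPKM, and in 6 it was under 10 FPKM. The order of levels was led by Cd63, which encodes a tetraspanin of late endosomes, lysosomes and exosomes, at a mean of 1533 FPKM. Lamp1 followed at 291 FPKM, then Lamp2 at 175 FPKM and Psap at 174 FPKM, whose ranges over the 6 libraries overlap, and Lgmn at 144 FPKM. Galc, the galactosylceramidase that degrades myelin lipids, and Sgsh closed the order at 4.51 and 4.63 FPKM.

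**Figure D3:**
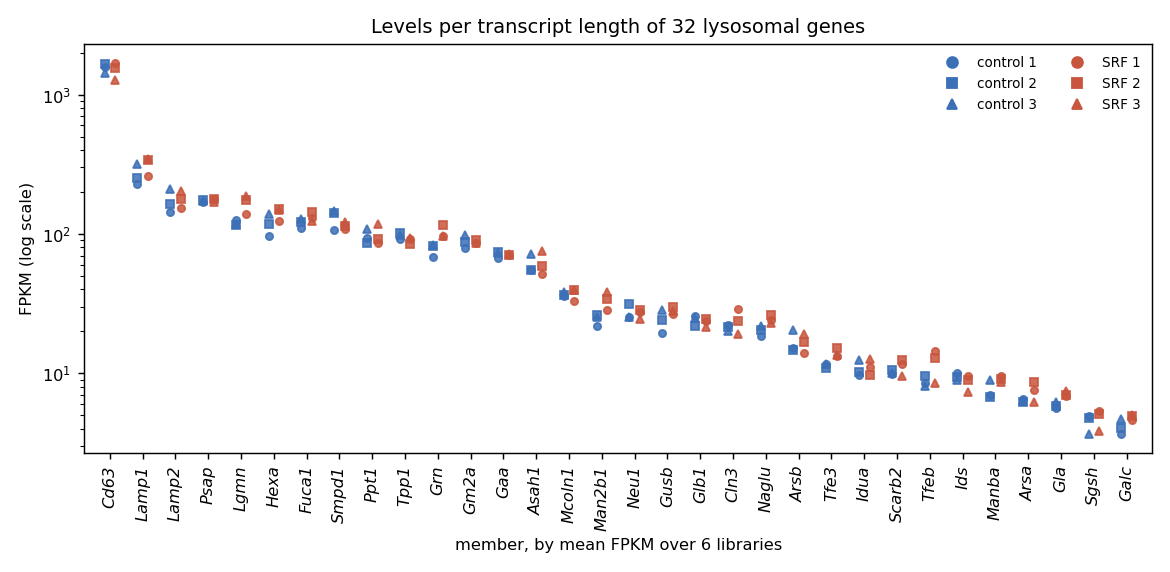
FPKM of the 32 members in each library on a log axis, ordered by the mean over 6 libraries. Blue symbols are control and red symbols are SRF, with the symbol shape set by replicate number. Cd63 stands alone near 1533 FPKM and Galc is lowest at 4.51 FPKM. The control and SRF symbols overlap for most genes.

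The glycosidases remove sugars from glycoproteins, glycolipids and glycosaminoglycans, and 9 of the 12 had a positive log2 fold change, with a median of 0.17, beside 50.3% positive over all genes. Without control 1 and SRF 3, 7 of the 12 were positive and the median was 0.05. Among the 12, the sign of Idua, Neu1 and Gusb depended on the setting. Man2b1, the lysosomal alpha-mannosidase, was measured at 73.6, 90.1 and 90.3 CPM in controls 1, 2 and 3 and at 95.4, 113 and 132 CPM in SRF 1, 2 and 3. All 3 SRF libraries were above the highest control, although SRF 1 exceeded it by little. The means were 84.7 ± 9.6 CPM and 114 ± 18.5 CPM (SD, n = 3), which gave a log2 fold change of 0.43 ± 0.16 (SE, edgeR adjusted p = 0.606). It was 0.21 without control 1 and SRF 3.

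Gla and Naglu showed a smaller step of the same kind. Gla, alpha-galactosidase A, which clears globotriaosylceramide, stood at 17.3, 18.2 and 19.1 CPM in controls and 20.6, 20.8 and 22.5 CPM in SRF. Naglu, an enzyme of heparan sulfate breakdown, stood at 47.9, 53.4 and 56.7 CPM in controls and 61.0, 65.8 and 57.9 CPM in SRF. In both genes the groups did not overlap, but the gap between the nearest libraries was small, at 19.1 against 20.6 CPM and 56.7 against 57.9 CPM. The log2 fold changes were 0.23 ± 0.12 for Gla and 0.22 ± 0.12 for Naglu (SE, edgeR adjusted p = 0.828 and 0.809). They were 0.15 and 0.20 without control 1 and SRF 3.

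The other 9 glycosidases overlapped between groups. Their log2 fold changes ran from -0.10 for Glb1, the beta-galactosidase, to 0.22 for Manba, the beta-mannosidase. Hexa, the alpha subunit of beta-hexosaminidase, was the most abundant glycosidase at a mean of 130 FPKM, with a log2 fold change of 0.21 (95% interval -0.17 to 0.59), or 0.045 without control 1 and SRF 3. Fuca1, the alpha-fucosidase, was close to it at 127 FPKM, with 0.10 (-0.17 to 0.37). Gusb (beta-glucuronidase) and Galc stood at 0.17 each (Galc 0.054 without control 1 and SRF 3), Idua (alpha-iduronidase) at 0.02 (-0.18 without them), Gaa (acid alpha-glucosidase, which degrades glycogen) at -0.05 and Neu1 (sialidase) at -0.07. Gusb kept its sign in 16 of 17 alternative analyses and was -0.01 without control 1 and SRF 3.

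The 4 sulfatases split evenly around zero, with a median log2 fold change of -0.01 (0.09 without control 1 and SRF 3), and their groups overlapped. The values of Sgsh and Arsb changed sign with the setting. Arsa, arylsulfatase A, was at 0.19 and Sgsh, the heparan sulfamidase, at 0.05. Arsb, arylsulfatase B, was at -0.06 and Ids, iduronate 2-sulfatase, at -0.19 (95% interval -0.50 to 0.12). Without control 1 and SRF 3, Arsa was at 0.31, Sgsh at 0.24, Arsb at -0.25 and Ids at -0.05.

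The lipid hydrolases and their activator proteins sat at or slightly below zero, with a median log2 fold change of -0.04 over 5 genes and overlapping groups. Without control 1 and SRF 3 all 5 were negative, with a median of -0.19. The signs of Psap, Gm2a, Asah1 and Ppt1 depended on the setting. Smpd1, acid sphingomyelinase, had the lowest value of the 32 members at -0.24 (95% interval -0.60 to 0.12). Its log2 fold change was -0.43 without those libraries (edgeR adjusted p = 0.137). Psap, whose precursor is cut into the saposins that present sphingolipids to their hydrolases, hardly varied, at 459, 477 and 466 CPM in controls and 467, 459 and 441 CPM in SRF. Its log2 fold change was -0.04 ± 0.10 (SE), with a 95% interval from -0.27 to 0.20. The other 3, Gm2a (the GM2 activator), Asah1 (acid ceramidase) and Ppt1 (a palmitoyl-protein thioesterase), were at -0.07, -0.03 and 0.00. Without control 1 and SRF 3 they were at -0.14, -0.28 and -0.19.

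The signs of the peptidases were opposite, in the main analysis and in all 17 alternatives. Lgmn encodes legumain, an asparaginyl endopeptidase that also processes cathepsins. It was measured at 246, 227 and 229 CPM in controls and at 263, 326 and 355 CPM in SRF, so that every SRF library was above every control. SRF 1 was closest to the controls. The means were 234 ± 10.4 CPM and 314 ± 47.1 CPM (SD, n = 3), which gave a log2 fold change of 0.43 ± 0.14 (SE, edgeR adjusted p = 0.539). Over the 17 alternatives it stayed between 0.34 and 0.54, and it was 0.37 without control 1 and SRF 3.

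Tpp1, tripeptidyl peptidase, was the only member whose SRF libraries were all below the controls. It was measured at 335, 365 and 348 CPM in controls and at 308, 290 and 322 CPM in SRF. The difference was small, at -0.19 ± 0.10 on the log2 scale (SE, edgeR adjusted p = 0.838), and on the FPKM scale the groups overlapped, with 93.0 FPKM in SRF 3 and 92.7 FPKM in control 1. Without these 2 libraries the log2 fold change was -0.26.

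**Figure D4:**
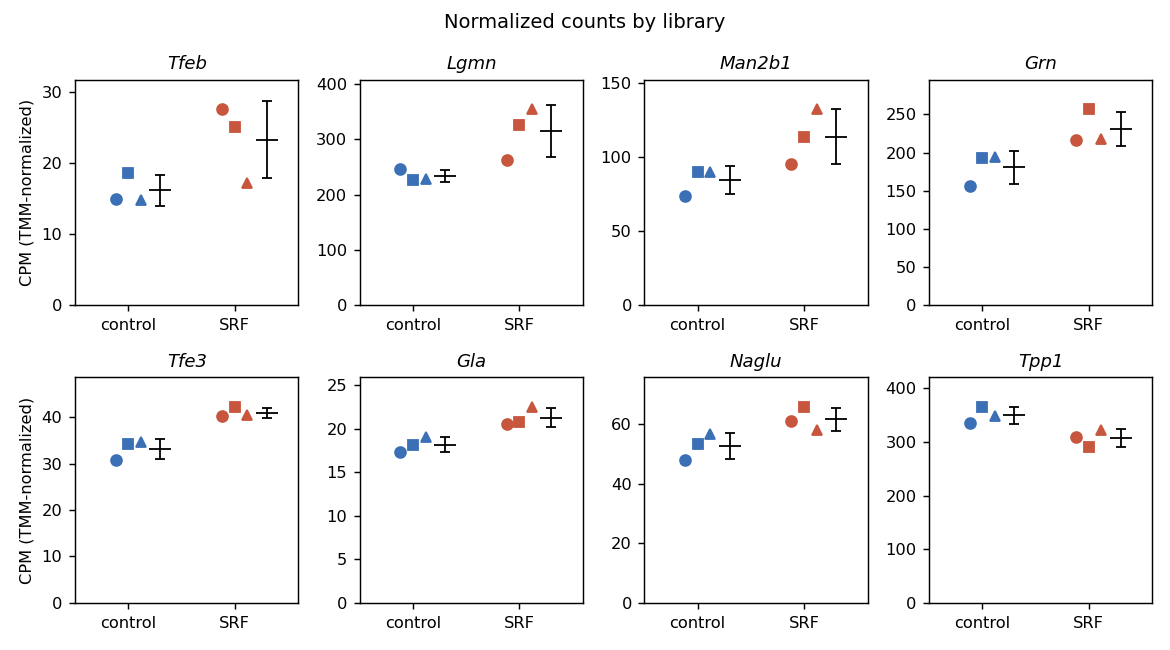
TMM-normalized CPM (linear axes starting at 0) of the 8 members with a nominal p-value below 0.05 or with groups that do not overlap, in order of log2 fold change. Symbols are single libraries (circle, square and triangle for replicates 1, 2 and 3) and black bars are the mean ± SD of 3 libraries. Tfeb is the only one of the 8 whose groups overlap, through SRF 3 at 17.3 CPM, and Tpp1 is the only one lower in SRF.

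The membrane proteins had a median log2 fold change of 0.04 (0.01 without control 1 and SRF 3), and in all 6 the groups overlapped. Lamp1 and Lamp2, the abundant glycoproteins that line the lysosomal membrane, differed more between mice of a group than between groups. Lamp1 was at 520, 575 and 718 CPM in controls and at 576, 735 and 765 CPM in SRF, with a log2 fold change of 0.19 (95% interval -0.21 to 0.60), or 0.016 without control 1 and SRF 3. Lamp2 was at 359, 424 and 582 CPM in controls and at 368, 448 and 535 CPM in SRF, with -0.01 (-0.53 to 0.50), or -0.30 without them. For both genes replicate 1 was the lowest library of its group.

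Cd63 was at 1699, 1810 and 1546 CPM in controls and at 1773, 1603 and 1339 CPM in SRF. SRF 3 was the lowest of the 6 libraries and the groups overlapped, with a log2 fold change of -0.10 (95% interval -0.43 to 0.23). The log2 fold change of Cd63 was 0.005 without control 1 and SRF 3. The remaining membrane genes were Cln3, mutated in juvenile neuronal ceroid lipofuscinosis, at 0.11, Scarb2, the sorting receptor of glucocerebrosidase, at 0.09 and Mcoln1, the calcium channel mucolipin 1, at -0.04. Without control 1 and SRF 3, Cln3 was at 0.24, Scarb2 at 0.16 and Mcoln1 at -0.13. The values of Lamp2, Cd63 and Mcoln1 lay on either side of zero depending on the setting.

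The 3 regulators were all higher in SRF, each with a nominal p-value below 0.05 in edgeR and none with an adjusted p-value under 0.6, and they kept this direction in all 17 alternatives. Tfeb was at 15.0, 18.7 and 14.8 CPM in controls and at 27.6, 25.1 and 17.3 CPM in SRF. SRF 3 lay within the controls, while SRF 1 and SRF 2 were well above them. The log2 fold change was 0.53 ± 0.21 (SE, edgeR adjusted p = 0.665), the largest of the 32 members in the main analysis. It was 0.65 without control 1 and SRF 3 (edgeR adjusted p = 0.128). Over the 17 alternatives it ran from 0.39 to 0.71, and Tfeb did not always lead. On log2(FPKM + 0.1) it was at 0.42 and Lgmn at 0.47, and without SRF 1 they were at 0.39 and 0.54.

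Tfe3 was at 30.7, 34.2 and 34.7 CPM in controls and at 40.2, 42.2 and 40.5 CPM in SRF. The libraries of each group were close together and the groups were apart, with a log2 fold change of 0.30 ± 0.11 (SE, edgeR adjusted p = 0.601). Grn encodes progranulin, a secreted and lysosomal glycoprotein needed for normal hydrolase activity, and is strongly expressed by macrophages. It was at 156, 193 and 194 CPM in controls and at 217, 257 and 218 CPM in SRF, apart, with 0.35 ± 0.14 (SE, adjusted p = 0.658). Without control 1 and SRF 3 the log2 fold changes of Tfe3 and Grn were 0.25 and 0.29, neither with a nominal p-value below 0.05.

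Mitf, the family member that drives pigment cell genes and is no member of the set, was lower in SRF. Mitf was at 52.2, 65.8 and 62.3 CPM in controls and at 47.7, 41.1 and 34.8 CPM in SRF, with a log2 fold change of -0.55 ± 0.16 (SE, edgeR adjusted p = 0.448). Every SRF library was below every control. The ratio of Tfeb to Mitf in FPKM was 0.584, 0.519 and 0.507 in controls and 1.05, 1.07 and 0.948 in SRF. It was thus higher in each SRF library than in any control. So was the ratio of Tfe3 to Mitf (0.587 to 0.797 in controls, 0.957 or more in SRF). The genes of these ratios were already seen to differ in opposite directions, so the separation adds no evidence. In SRF 3 Tfeb was at 8.52 FPKM, within the controls (8.07 to 9.62), and Mitf at 8.99 FPKM (14.55 to 18.53 in controls). The RPE marker list was lower in the SRF libraries too, and its part in the level of Mitf was not tested. The transcript length implied by counts and FPKM moved by 1.18 times between libraries for Tfeb and Tfe3, and by 1.13 times for Mitf. For Tfeb it was 1739 to 1899 bases in controls and 1921 to 2048 bases in SRF, without overlap. Ratios in FPKM carry these differences too.

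MiT/TFE proteins bind the E-box core CACGTG, in its extended form TCACGTGA, and promoters of the members were searched for these letters. Both are their own reverse complement, so a match lies on both strands, and each extended match contains a core. RefSeq promoter windows of 300 bases (250 before and 50 after the start, GRCm38.p6) were found for 31 members, all but Asah1. The core was present in 10 members (32.3%), beside 8.09% of 27025 genes with a window, 11.5% of the tested genes and 21.4% of the other lysosome genes described below. The extended form was present in Gla, Cln3 and Mcoln1 (9.68%, beside 1.13% of all genes, 2.11% of the tested genes and 9.52% of the other lysosome genes). The other members with the core were Gaa, Glb1, Naglu, Sgsh, Arsa, Lgmn and Lamp1. Cln3 and Lgmn have 2 windows each and the core in 1 of them.

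The stretches of Gla, with both of its matches in the extended form, and of Lamp1, with the most cores, are shown. Those of Gaa and Glb1, whose log2 fold changes were negative, are shown beside them. Mcoln1, also negative at -0.04, has 2 cores, 1 of them in the extended form, and its stretch is not shown. Capitals mark the core, or the extended form where it is complete, and each stretch reads 5′ to 3′ on the strand of the gene. Those of Gla (minus strand) and Lamp1 (plus) lie at chrX:134601174-134601252 and chr8:13159080-13159160. Those of Gaa and Glb1 (both plus) lie at chr11:119267803-119267848 and chr9:114401010-114401055.
Gla: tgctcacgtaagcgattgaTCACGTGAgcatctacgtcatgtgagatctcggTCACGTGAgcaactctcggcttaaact
Lamp1: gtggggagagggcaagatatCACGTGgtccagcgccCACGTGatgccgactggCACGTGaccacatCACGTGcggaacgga
Gaa: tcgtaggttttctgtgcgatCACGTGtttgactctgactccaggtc
Glb1: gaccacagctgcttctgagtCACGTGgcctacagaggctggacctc

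The 4 cores of Lamp1 begin between -61 and -15 from the start, and the 2 extended matches of Gla hold cores at -227 and -194. The single cores of Gaa and Glb1 begin at -140 and -48. Members with the core had a median log2 fold change of 0.15 and were positive in 7 of 10. Members without it had a median of 0.02 and were positive in 12 of 21. Both sets span zero, from -0.10 to 0.43 with the core and from -0.24 to 0.53 without it. Of the 5 members with a nominal p-value below 0.05, only Lgmn carried the core. The groups lay apart upward in 3 of the 10 members with the core and 3 of the 21 without it (6.71% of all genes). They lay apart downward in 0 and 1 (6.43% of all genes). These values are from all 6 libraries.

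The members were set beside 57 other lysosome genes, of which 56 were listed and 54 tested. Their median log2 fold change was 0.07, as over the members, and single genes among them ranged more widely, from -0.55 to 1.05. In 6 of the 54 the nominal p-value was below 0.05 with a higher level in SRF (11.1%, beside 4.16% of all genes) and in 3 with a lower level (5.56%, beside 2.85%). edgeR called 0 of them and DESeq2 called 5 (9.26%, beside 1.14%). The 20 other hydrolases and lipid carriers had a median of 0.10, the 10 genes of enzyme sorting and activation 0.14 and the 17 other membrane proteins 0.04. The 7 of the MiT/TFE and nutrient signalling list had a median of -0.05, and all 7 were negative, from -0.55 to -0.01. In 3 of them every SRF library was below every control (42.9%, beside 6.43% of all genes). The nominal p-value was below 0.05 in 2 (28.6%, beside 2.85%). Without control 1 and SRF 3, 5 of the 7 were negative. Without control 1 and SRF 3 the median over the 53 then tested was 0.01.

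Besides Mitf, 5 of these other genes with a nominal p-value below 0.05 and a log2 fold change of 0.5 or more in size are described. Cd68, a macrophage lysosomal glycoprotein, was at 68.3, 88.7 and 76.2 CPM in controls and at 154, 189 and 138 CPM in SRF, apart, with a log2 fold change of 1.05 ± 0.16 (SE, as for the next 4 genes). Acp5, tartrate-resistant acid phosphatase, was at 12.8, 12.1 and 12.9 CPM in controls and at 25.1, 23.2 and 20.8 CPM in SRF, with 0.87 ± 0.14. Laptm5, a lysosomal protein of blood cells, had 0.88 ± 0.18, and Sidt2, a lysosomal nucleic acid transporter, had 0.68 ± 0.13. These 4 were called by DESeq2 (adjusted p = 1e-05 for Cd68 and 0.000918 for Acp5) and not by edgeR (adjusted p = 0.198 for both), and they are among the genes the study itself selected on these libraries, which is not independent evidence of their direction. Plbd1, a phospholipase B-like protein, was at 81.5, 83.6 and 84.0 CPM in controls and 60.9, 52.0 and 61.7 CPM in SRF, with -0.51 ± 0.11 (DESeq2 adjusted p = 0.0161, edgeR 0.303).

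**Figure D5:**
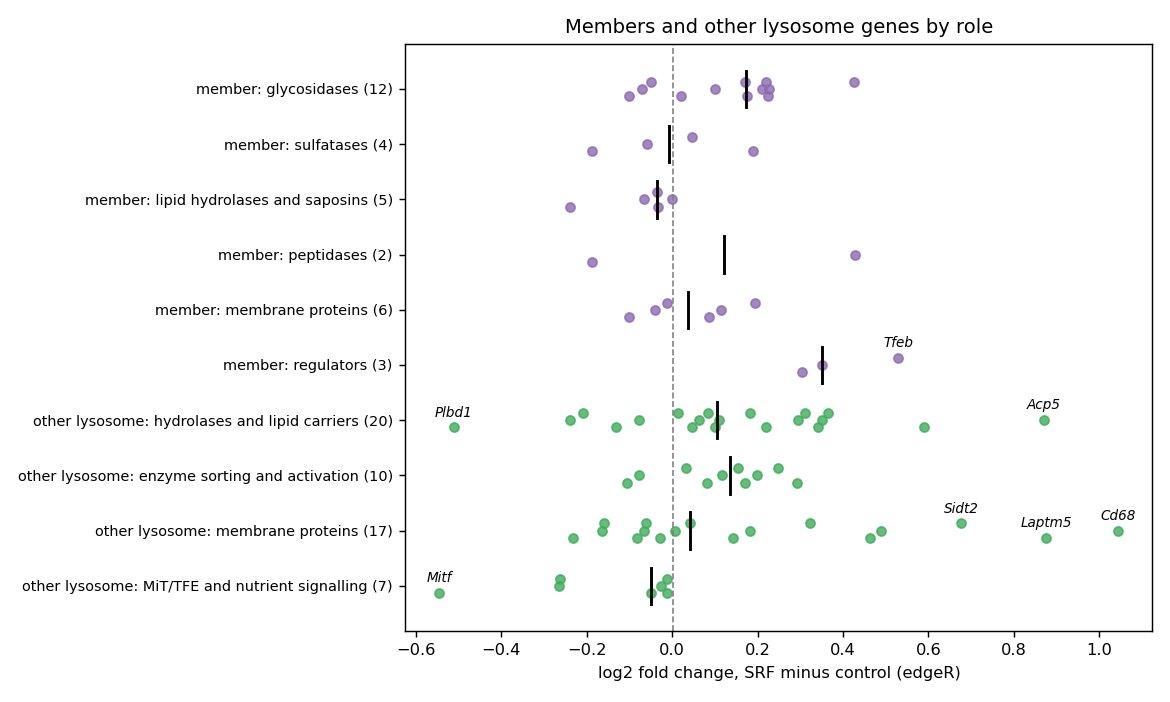
Log2 fold change of SRF against control (edgeR) for the 32 members (purple) and the 54 tested other lysosome genes (green) by role, 1 point per gene, with black lines at list medians and a dashed line at the median of all genes. Names mark Tfeb and the other lysosome genes described in the text. The members lie between -0.24 and 0.53, and Cd68, Laptm5, Acp5 and Sidt2 lie to the right of them all.

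Cell type markers differed between the same groups of libraries. Among the 16 macrophage markers 15 had a positive log2 fold change, 11 with a nominal p-value below 0.05, and the median was 0.78, beside 0.07 for the lysosomal members and 0.35 for the 3 regulators. Among the 9 RPE markers 8 were negative, 5 with a nominal p-value below 0.05, and the median was -0.50. Without control 1 and SRF 3, 7 RPE markers were negative, 3 with a nominal p-value below 0.05, and their median was -0.33. Without these libraries 14 macrophage markers were positive, 11 with a nominal p-value below 0.05, and their median was 0.73. No macrophage marker was at 0 in any library, the lowest count being 75. The lists of 6 fibroblast markers (4305 to 10052 CPM in controls, 6611 to 11010 CPM in SRF), 8 endothelial markers and 5 pigment cell markers overlapped between groups. All 6 fibroblast markers had a positive log2 fold change, 1 with a nominal p-value below 0.05, with a median of 0.54, or 0.19 without control 1 and SRF 3. The medians were 0.03 for the endothelial and 0.11 for the pigment cell markers. The part of these cell types in the levels of Lgmn, Man2b1, Grn, Tfeb, Tfe3 and the other members was not tested.

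Some member counts may include reads of a neighbouring gene. In the annotation used, exons of 11 members share bases with exons of another gene, in 8 with a gene that is listed in the tables. The largest overlaps with a listed gene, both on the opposite strand, are those of Sgsh (955 bases with Card14) and Cln3 (442 bases with Apobr). On the opposite strand too, Hexa shares 255 bases with Tmem202, Lamp1 249 bases with Grtp1 and Grn 68 bases with Fam171a2. The strand setting of the counting is not given in the sources used here, so reads of such partners cannot be told apart there. Glb1 shares 165 bases with Tmppe on the same strand, which no strand setting would separate.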

How the data were processed

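RNA-seq libraries of RPE-choroid from 3 control and 3 SRF mice were analysed, with groups and replicate numbers from the sample labels. The authors filtered the reads, mapped them, and deposited whole-number counts per gene from StringTie, without normalization. FPKM values, deposited beside the counts, were used for levels between genes and in 2 alternatives. The aligner, genome build and strandedness are not given in the sources used here. Positions and symbols were taken from GENCODE M21 (GRCm38), in which 15659 of 15663 identifiers were found.

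A gene was tested if over 50 counts fell on it in 2 or more libraries, with edgeR 4.0.16 in R 4.3.3 (TMM factors 0.978 to 1.026, glmQLFit with legacy = TRUE, glmQLFTest, group as the only term) after a test on simulated counts, with Benjamini-Hochberg adjustment over 13454 genes. CPM values are TMM-normalized. Intervals (95%) and standard errors of log2 fold changes are from the edgeR fit, and errors of CPM are SDs over 3 mice. The study's tool, DESeq2 (1.42.0), was an alternative, as were limma 3.58.1 on log2(FPKM + 0.1) and on log2(FPKM + 1), different normalizations and filters, the newer edgeR fit, a replicate block, a photoreceptor covariate and leaving out libraries.

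All members are accounted for. Values per library are given for members with a nominal (unadjusted) p-value below 0.05, with groups that do not overlap, or among the 5 highest mean FPKM. Of the other lysosome genes, those with a nominal p-value below 0.05 and a log2 fold change of 0.5 or more in size were named, up to 8, and 1 gene that met this rule is not reported here. The members and lists were chosen with earlier results of these data known. With 3 mice against 3, an exact permutation test of a single value cannot go under 0.1, so none was run.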

Additional observations from a re-analysis of the deposited data

How the results depend on the processing

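No member was called under any of the 17 alternatives. Of 544 member values under them, 537 moved by less than the spread between replicates, 7 moved by more and 0 of the members with separated groups or a nominal p-value below 0.05 changed sign. In all, 20 of the 32 members kept their sign throughout, and the 12 that did not had log2 fold changes of 0.17 or less in size. Genes called over the whole table were 0 in the main analysis, 153 with DESeq2, 153 with control 1 and SRF 3 both left out, 1 with library totals only, 1 without a filter on low counts, 1 with filterByExpr, 1 with legacy = FALSE, 1 with the photoreceptor covariate, and 2 with limma at either pseudocount. Leaving out 1 library gave 0 to 5 genes, the 5 without control 1. The cause was not tested. The members with a nominal p-value below 0.05 numbered 3 with control 1 and SRF 3 both left out, and 0 to 4 with 1 library left out. The median log2 fold change of the members, 0.07, was 0.041 to 0.127 with 1 library left out and 0.01 without control 1 and SRF 3. With library totals only it was 0.12 while the median of all genes moved to 0.05. A replicate number is shared by different animals. The deviations of libraries with equal numbers from their group means correlated at -0.48, 0.48 and -0.30. With 3 libraries per group, these values cannot decide whether libraries with equal numbers were processed together. With the replicate block 0 genes were called, 5 members had a nominal p-value below 0.05 and the median of the members was 0.06. With standard errors of 0.10 to 0.22, small log2 differences cannot be seen at this depth and number of mice. Larger ones of 0.43 (Lgmn) and 0.53 (Tfeb) were not called either (edgeR adjusted p = 0.539 and 0.665).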
